A study of Mus musculus with 21 samples.

Results

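Complement is described here in the livers of mice through 30 genes for its components, regulators and receptors. The genes were chosen by name and found through the transcript accession of each array probe. Where a gene had several probes, the one with the brightest mean liver signal stood for it. All 30 genes had a probe among the 16535 named genes of the array, C1s under its current symbol C1s1, with 38 probes in all. The test was run where the liver signal of the probe was well above background on 50% or more of the arrays of any 1 group. Of the 30 genes, 27 passed this filter, among 11263 named genes and 17649 tested features in all, since a probe without a gene symbol counted as a feature of its own. Cfd, C3ar1 and C5ar1 did not pass it.

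The livers came from female C57BL/6 mice that were 5 to 7 weeks old when bought and had 1 to 3 weeks to acclimatise. TiO2 mice received nanosized titanium dioxide (nano-TiO2) once through the trachea, 162 µg in 40 µl, and control mice received the vehicle alone. The vehicle was saline to which 10% lung lavage fluid of naive mice, freed of cells, had been added, so both kinds of mice were given lavage fluid. There were 6 TiO2 mice and 4 control mice at day 28 after the instillation, and 6 TiO2 mice and 5 control mice at day 1. Each mouse was on 1 array, its liver RNA in the red dye and a universal mouse reference RNA from 11 cell lines in the green dye, and the dyes were never exchanged. A level below is the log2 ratio of the liver signal to the reference signal, so it can be compared between mice for 1 gene but not between genes. The series' title speaks of complement in the heart, and the comparison asked here is whether complement genes of the liver differed after the instillation.

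Complement is a set of plasma proteins that mark and destroy particles and cells. The classical pathway starts when C1q binds antibody or a surface and the proteases C1r and C1s cleave C4 and C2. In the lectin pathway mannose-binding lectins and their proteases do the same from sugars, and the alternative pathway amplifies the cleavage of C3 with factor B, factor D and properdin. All routes cleave C3 and then C5, after which C5 to C9 form the membrane attack complex. Hepatocytes make most of the plasma proteins, whereas C1q and properdin come largely from macrophages and other myeloid cells, in the liver from Kupffer cells. In whole liver RNA, fewer cells of a type and less RNA per cell cannot be told apart.

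The promoters of 4 members, 2 pairs of nearby genes that are described together below, are printed because each pair is described together. The windows are the 250 bases before the start of the gene, 5′ to 3′ on the strand of the gene, from RefSeq on GRCm38.p6. The short words in capitals were chosen after the sequences had been read. In C1qb and C1qc the capitals mark GAGGAA or its reverse complement TTCCTC, the core bound by PU.1, a factor of myeloid cells.
C1qb, chr4:136886201-136886450, minus strand: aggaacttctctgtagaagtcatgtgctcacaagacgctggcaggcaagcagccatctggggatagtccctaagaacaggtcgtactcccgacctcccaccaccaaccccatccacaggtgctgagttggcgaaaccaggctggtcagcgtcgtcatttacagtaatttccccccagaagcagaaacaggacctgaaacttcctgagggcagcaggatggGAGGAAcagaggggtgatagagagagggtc
C1qc, chr4:136892915-136893164, minus strand: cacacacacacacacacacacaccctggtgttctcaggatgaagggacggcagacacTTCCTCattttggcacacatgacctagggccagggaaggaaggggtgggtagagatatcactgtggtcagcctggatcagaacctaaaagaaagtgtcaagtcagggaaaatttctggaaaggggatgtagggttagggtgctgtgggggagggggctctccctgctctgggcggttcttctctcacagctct
In C8a and C8b the capitals mark GTTAAT or its reverse complement ATTAAC, the half-site of HNF1, a factor of hepatocytes.
C8a, chr4:104876399-104876648, minus strand: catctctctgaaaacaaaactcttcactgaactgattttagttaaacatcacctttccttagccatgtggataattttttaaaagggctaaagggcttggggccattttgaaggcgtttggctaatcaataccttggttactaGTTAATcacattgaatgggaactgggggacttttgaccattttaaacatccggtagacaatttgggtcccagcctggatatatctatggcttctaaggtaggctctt
C8b, chr4:104766067-104766316, plus strand: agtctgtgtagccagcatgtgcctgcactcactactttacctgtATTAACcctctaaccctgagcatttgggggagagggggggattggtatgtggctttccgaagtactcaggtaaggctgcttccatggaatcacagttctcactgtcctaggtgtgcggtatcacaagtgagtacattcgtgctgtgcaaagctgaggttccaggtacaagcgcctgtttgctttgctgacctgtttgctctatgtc
On either strand the PU.1 core occurred in the windows of 3 of the 22 members that have one (C1qb, C1qc and Cd59a), against 23.3% of 32851 promoter windows of this length. The HNF1 half-site occurred in those of 7 members (C1ra, C4bp, C8a, C8b, Cfp, Hc and Vtn), against 6.43% of all windows. These matches describe the letters and say nothing about binding.

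The arrays were scanned on 3 days, and scan day accounted for 91.7% of the first principal component of all features, against 1.51% for the group. Every scan day held arrays of all 4 groups, so all differences below come from 1 limma model with scan day as a block. The liver channel had between 13001 and 26632 probes above background on an array, the largest numbers on scan day 2. The extraction protocol names lungs although the source is given as liver. All 13 hepatocyte markers on the array were above background on all 21 arrays, as was 1 of 9 lung markers, Sftpd. Of the other lung markers, Lamp3 was above background on 20 arrays, Scgb1a1 on 17, Napsa on 13, Sftpa1 on 4, Sftpb and Sftpc on 2 each, Cldn18 on 1 and Ager on 0. The mean level of the 9 lay between -0.191 and 0.0793 on every array, and the part of lung RNA in the results was not tested.

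No complement gene passed the test between TiO2 and control livers on either day. At day 28, 0 of the 27 tested members had an adjusted p under 0.05 in limma, as did 0% of all features, and the smallest adjusted p of a member was 1. There, 17 members were higher and 10 lower in TiO2 livers, with a median difference of 0.079 on the log2 scale, where 48.7% of all features were higher with a median of -0.00342. With the scanner software's own log ratios 11 were higher and the median was -0.036. At day 1 none of the members passed either (0% of all features, smallest adjusted p of a member 0.992). Again 17 members were higher and 10 lower in TiO2 livers, with a median of 0.033, where 45.7% of all features were higher with a median of -0.012. Without the scan day block 12 were higher and the median was -0.025. In the mean of both days, 0 members passed, as did 0% of all features, and 20 members were higher and 7 lower, with a median of 0.080. Of all features 48.3% were higher in that mean, with a median of -0.0032.

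At an unadjusted p under 0.05, 3 members were higher and 0 lower in TiO2 livers at day 28 (C1qb, C1qa and C6), with 1.47% of all features higher at that level. At day 1 there were 5 such members, all higher (Hc, C1qc, Mbl1, Serping1 and C9), with 2.17% of all features higher. The mean of both days had 7, all higher (C1qb, Mbl1, C8a, C8b, C1qc, C6 and C9), with 1.58% of all features higher. The mean is made from the same animals as the single days and is no further evidence. These counts moved with single animals. Without control day 1 replicate 1 the mean of both days had 2 such members (C1qb and C8a). Day 1 then had 1, C8a, which was not among the 5 named above. Without control day 28 replicate 4 the mean had 2 (C1qb and Mbl1) and day 28 had 1 (C1qb). With 1 animal left out at a time, counts in either direction ranged from 1 to 4 at day 28, from 1 to 8 at day 1 and from 2 to 9 in the mean. The 9 included Vtn, whose difference in the mean with all animals was -0.17.

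**Figure D1:**
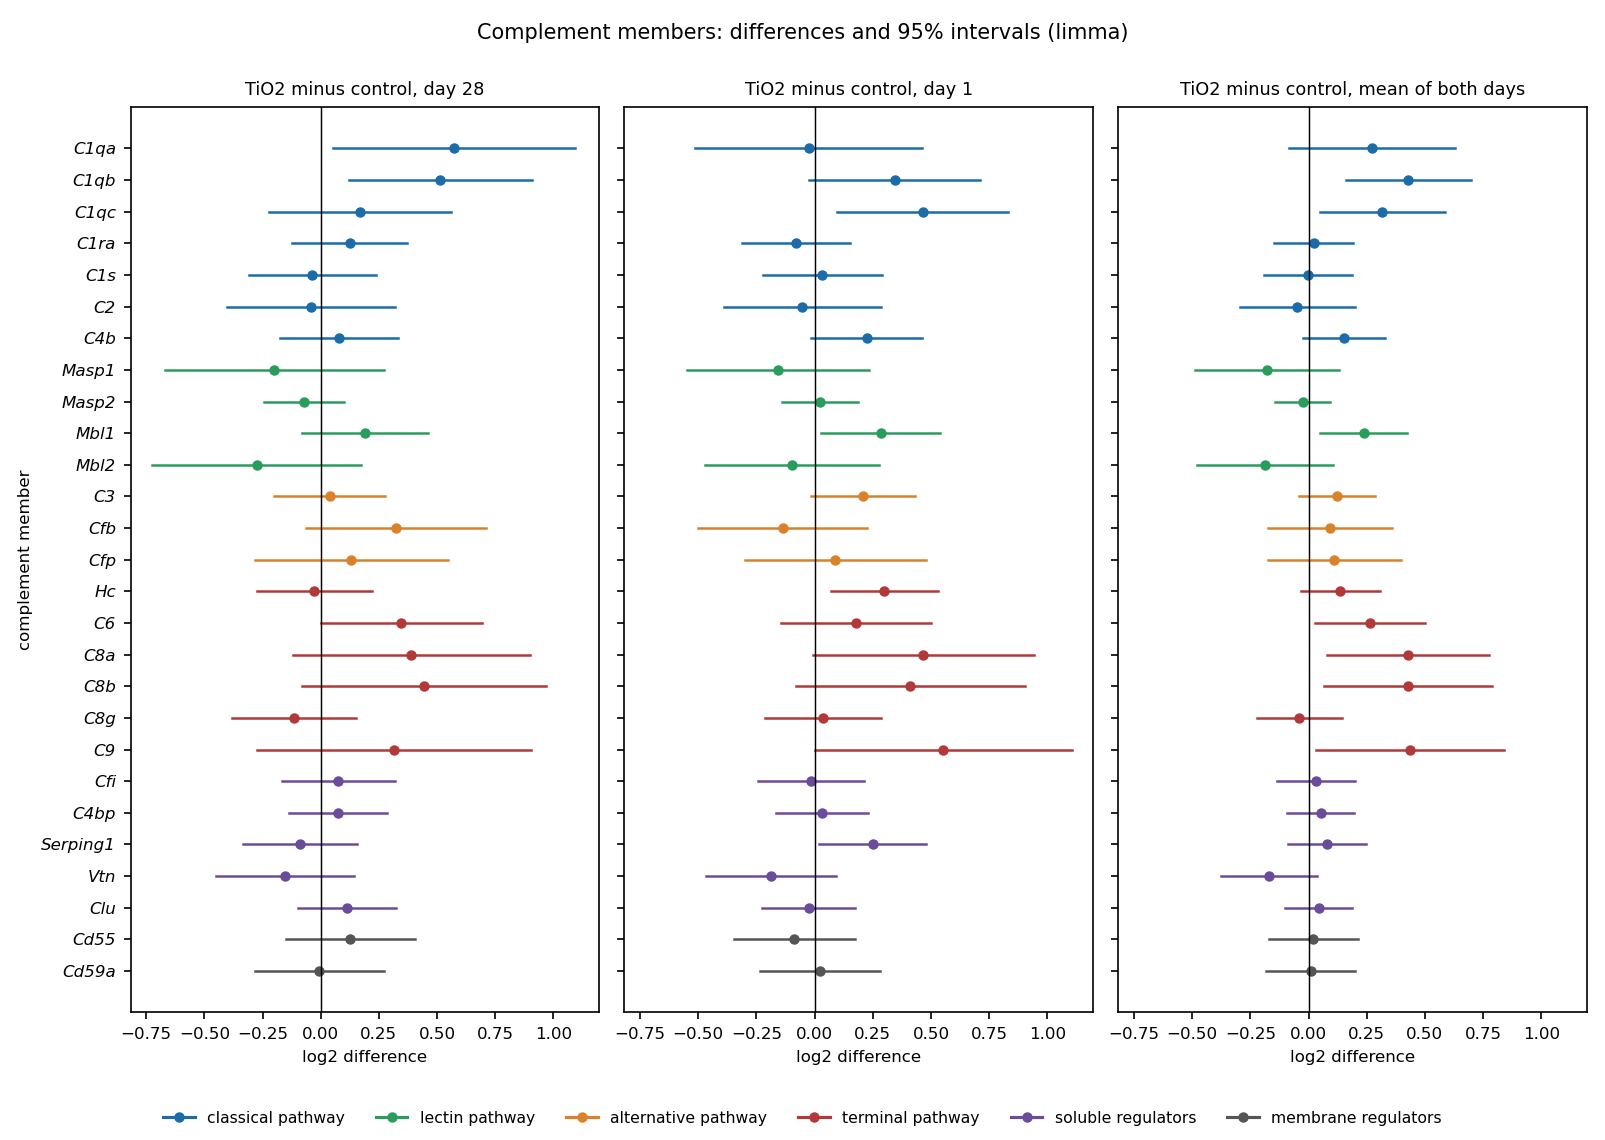
Difference between TiO2 and control livers (log2, x axis) of the 27 tested complement genes (y axis) at day 28, at day 1 and in the mean of both days. Points are limma estimates with scan day as a block, bars are 95% intervals and colours give the role; most intervals cross 0, and C1qb has 0.51 at day 28, 0.34 at day 1 and 0.43 in the mean.

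The classical pathway is headed by C1q, the recognition molecule, whose 3 chains A, B and C come from the neighbouring genes C1qa, C1qb and C1qc. Of the 7 genes of this pathway, 5 were higher in TiO2 livers at day 28 and 4 at day 1, with medians of 0.12 and 0.03. C1qb had a lowest, median and highest level of 1.73, 2.59 and 2.91 in 6 TiO2 livers at day 28, against 1.64, 2.02, 2.09 and 2.31 in the 4 control livers. At day 1 it had 1.80, 2.58 and 3.04 in 6 TiO2 livers, against 1.95, 2.00, 2.18, 2.35 and 2.40 in the 5 control livers. On both days 4 of the 6 TiO2 livers lay above all controls and the groups overlapped below that; TiO2 livers above the control mean of their own scan day numbered 6 of 6 at day 28 and 4 of 6 at day 1.
The difference in C1qb was 0.51 ± 0.19 (limma estimate ± SE) at day 28 with an adjusted p of 1, and 0.34 ± 0.18 at day 1 with an adjusted p of 0.992. In the mean of both days it was 0.43 ± 0.13, a 1.35-fold higher level (95% interval 0.16 to 0.70, unadjusted p 0.00337, adjusted p 1 in limma). This was the smallest unadjusted p of any member in the 3 comparisons of TiO2 with control. Within the 3 scan days the difference in the mean was 0.34, 0.40 and 0.55.

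C1qa had a difference close to that of C1qb at day 28 and one near 0 at day 1. Its lowest, median and highest levels were 1.03, 3.04 and 3.84 in TiO2 livers at day 28, against 1.24, 2.17, 2.95 and 3.35 in control livers. At day 1 they were 1.65, 2.85 and 3.84 in TiO2 livers, against 2.21, 3.11, 3.16, 3.31 and 3.47 in control livers. The groups overlapped on both days, and in each of the 4 groups the low levels came from scan day 1. Its difference was 0.57 ± 0.25 at day 28 (0.47, 0.59 and 0.87 within scan days) and -0.03 ± 0.23 at day 1. The difference between the 2 effects was 0.60 ± 0.34, with a 95% interval from -0.11 to 1.31 and an adjusted p of 1 in limma.

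For C1qc the larger difference was that of day 1. Its levels were 3.81, 4.37 and 4.97 (lowest, median, highest) in TiO2 livers at day 28, against 3.96, 4.04, 4.34 and 4.56 in control livers. At day 1 they were 3.71, 4.32 and 5.24 in TiO2 livers, against 2.92, 4.32, 4.33, 4.39 and 4.43 in control livers. One control liver of scan day 1, replicate 1 at day 1, lay far below the other 4, and the groups overlapped on both days. The difference was 0.17 ± 0.19 at day 28 and 0.46 ± 0.18 at day 1, where it ranged down to 0.17 over the alternatives run. In the mean of both days it was 0.32 ± 0.13, again with an adjusted p of 1. Within scan days the day 1 difference was 1.00, -0.02 and 0.69, the first of them against control replicate 1 alone. Without that control liver C1qc no longer had an unadjusted p under 0.05 at day 1 in limma.

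**Figure D2:**
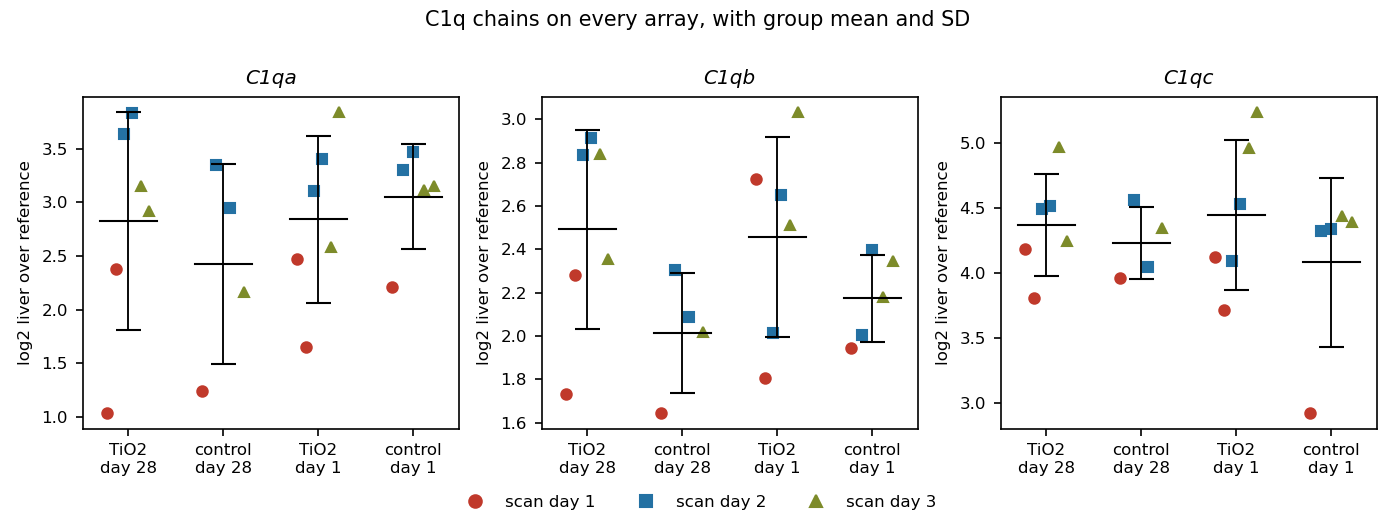
Level of C1qa, C1qb and C1qc (log2 liver over reference, y axis) on each of the 21 arrays by group (x axis). Points are arrays coloured by scan day, with the group mean and SD; TiO2 and control points overlap in every panel, and scan day 1 gives most of the low points.

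Across the 21 arrays, C1qa and C1qb had Pearson's r 0.75 and Spearman's rho 0.731, C1qb and C1qc 0.656 and 0.736, and C1qa and C1qc 0.539 and 0.69, values that include the shared scan day. Without the 2 arrays farthest from the median, r was 0.64, 0.574 and 0.62. The mean of each scan day was then subtracted and arrays were shuffled within scan days only, a test added after the values had been seen. Differences between the 4 groups stayed in these values, and their part in the relations was not tested. C1qa and C1qb then had r 0.786 and rho 0.8 (permutation tests, two-sided, p 8e-05 and 3e-05, adjusted over the 3 pairs 0.00024 and 9e-05). C1qb and C1qc had r 0.53 and rho 0.547 (permutation p 0.0245 and 0.0139, adjusted 0.0368 and 0.0209). For C1qa and C1qc no relation was detectable once scan day was removed, with r 0.142 and rho 0.209 (permutation p 0.628 and 0.421, adjusted the same). Within the single scan days r was 0.84, 0.872 and 0.752 for C1qa and C1qb over 6, 8 and 7 arrays, 0.15, 0.733 and 0.882 for C1qb and C1qc, and -0.365, 0.792 and 0.518 for C1qa and C1qc.

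The proteases and substrates of this pathway did not pass the test either. C1ra, which activates C1s, had 0.12 ± 0.12 at day 28 and -0.08 ± 0.11 at day 1, and C1s, which cleaves C4 and C2, had -0.04 ± 0.13 and 0.03 ± 0.12. C2, the catalytic part of the C3 convertase of this pathway, had -0.04 ± 0.17 at day 28 and -0.05 ± 0.16 at day 1. C4b, the mouse gene for C4, had 0.08 ± 0.12 at day 28 and 0.22 ± 0.11 at day 1, where all 6 TiO2 livers lay above the control mean of their scan day. Its near copy C4a, C1ra, C1s and Cd59a have close relatives in the genome, and a probe may take up RNA of the relative. A second, dimmer probe of C1s had 0.31 at day 28 and -0.08 at day 1. In the mean of both days it had 0.11, against -0.0020 for the one used.

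Of the 4 genes of the lectin pathway, Mbl1 had positive differences on both days with the probes used, and the other 3 did not. Mbl1, one of the 2 mannose-binding lectins of the mouse, had levels of 5.29, 5.56 and 6.05 (lowest, median, highest) in TiO2 livers at day 28, against 5.10, 5.15, 5.71 and 5.80 in control livers. At day 1 it had 5.46, 5.65 and 6.05 in TiO2 livers, against 4.63, 5.51, 5.71, 5.78 and 5.89 in control livers. In each group the arrays of scan day 3 were among the highest, and the groups overlapped. Its difference was 0.19 ± 0.13 at day 28, 0.28 ± 0.12 at day 1 and 0.24 ± 0.09 in the mean of both days, with adjusted p of 1, 0.992 and 1 in limma. Within scan days the mean difference was 0.52, 0.080 and 0.20, the first of them with 1 control liver at each time. Without that control liver of day 1, replicate 1 with the level of 4.63, the difference was 0.13 at day 1 and 0.16 in the mean.
Mbl2, the other lectin, had -0.28 ± 0.22 at day 28 and -0.10 ± 0.18 at day 1. Masp1, a protease of the pathway, had -0.20 ± 0.23 and -0.16 ± 0.19, and its second probe had the opposite sign at 0.23 in the mean of both days, where the probe used had -0.18. Mbl2 and Masp1 lacked a value on 1 control array of day 28, which left 3 there. Masp2, the protease that cleaves C4 and C2, had -0.07 ± 0.08 at day 28 and 0.02 ± 0.08 at day 1. Its 2 other probes had 0.02 and 0.16 at day 28, 0.17 and -0.22 at day 1, and 0.10 and -0.03 in the mean.

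C3, on which all pathways converge, did not pass the test on either day. Its levels were 5.53, 5.82 and 5.92 (lowest, median, highest) in TiO2 livers at day 28, against 5.65, 5.66, 5.71 and 5.94 in control livers. At day 1 they were 5.66, 5.92 and 6.04 in TiO2 livers, against 5.46, 5.51, 5.64, 5.83 and 6.05 in control livers. Both pairs overlapped, and TiO2 livers above the control mean of their scan day numbered 3 of 6 at day 28 and 5 of 6 at day 1. The difference was 0.04 ± 0.11 at day 28 (95% interval -0.20 to 0.28, adjusted p 1) and 0.21 ± 0.11 at day 1 (-0.02 to 0.43, adjusted p 0.992), in limma. At day 28 it turned to -0.07 without scan day 2 and to -0.01 without control day 28 replicate 3. The C3 probe was bright and saturated on 0 arrays. A second, dimmer probe of C3, above background on 21 arrays, had 0.04 at day 28 and 0.30 at day 1. With the mean over all probes of a gene, C3 had an unadjusted p under 0.05 in limma at day 1 and in the mean of both days, and did not pass.
In the alternative pathway Cfb, the factor B that forms the C3 convertase, had 0.32 ± 0.19 at day 28 and -0.14 ± 0.17 at day 1. The 2 effects differed by 0.46 ± 0.25, with an interval from -0.07 to 0.99. Within scan days the day 28 difference was 1.18, -0.11 and 0.08 and that of the effects 1.65, -0.11 and 0.09. On scan day 1 the only control liver of day 28 had a level of 3.14. The other 3, from scan days 2 and 3, had 5.13 to 5.36. Cfb was low on scan day 1 in every group, and scan day held 83.4% of its variance. From the mean of scan day 1 that control liver deviated by -0.66. TiO2 day 1 replicate 2, of the same scan day, had a level of 3.01 and deviated by -0.80. Cfp, or properdin, which stabilises that convertase, had 0.13 ± 0.20 at day 28 and 0.09 ± 0.19 at day 1. Cfd, the protease factor D that fat tissue makes in abundance, was above background on 0 of 21 arrays.

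The genes of the terminal pathway had the highest median difference of any role in the mean of both days, 0.35, with 5 of 6 higher in TiO2 livers, 4 of them at an unadjusted p under 0.05 (C8a, C8b, C6 and C9), against 1.58% of all features. Without control day 28 replicate 4 none of these 4 was left at that level, and without control day 1 replicate 1 only C8a was. At day 28, 4 of 6 were higher and at day 1 all 6. None passed the adjusted test. C8a and C8b are neighbours on chromosome 4 and encode the alpha and beta chains of C8, which inserts into the membrane.
C8a had levels of 5.25, 5.87 and 6.20 (lowest, median, highest) in TiO2 livers at day 28, against 4.27, 5.12, 6.02 and 6.19 in control livers. At day 1 it had 5.91, 6.54 and 7.26 in TiO2 livers, against 5.32, 5.62, 6.03, 6.04 and 6.88 in control livers. One TiO2 liver on each day lay above all controls, and the control livers spread widely at day 28. The difference in C8a was 0.39 ± 0.24 at day 28, 0.47 ± 0.23 at day 1 and 0.43 ± 0.17 in the mean of both days, with an adjusted p of 1 in limma for the mean. Within scan days the mean difference was -0.01, 0.29 and 1.06, and without control day 28 replicate 4, which had the level of 4.27, it was 0.27. C8b had 0.44 ± 0.25 at day 28 and 0.41 ± 0.24 at day 1, and 0.51, 0.26 and 0.71 within scan days in the mean. C8g, the third chain of C8, had -0.12 ± 0.13 at day 28 and 0.04 ± 0.12 at day 1, with a 95% interval from -0.38 to 0.15 at day 28.

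Hc, the mouse gene for C5, had levels of 6.97, 7.64 and 8.30 (lowest, median, highest) in TiO2 livers at day 28, against 6.95, 7.67, 7.80 and 8.21 in control livers. At day 1 it had 7.11, 7.72 and 8.59 in TiO2 livers, against 6.68, 7.39, 7.77, 8.17 and 8.27 in control livers. Scan day separated these levels, low on day 1 of scanning and high on day 3 in every group, and it held 87.1% of their variance. With scan day in the model the difference was -0.03 ± 0.12 at day 28 and 0.30 ± 0.11 at day 1, the smallest unadjusted p among members at day 1 (0.0132, adjusted p 0.992 in limma). Within scan days the day 1 difference was 0.51, 0.14 and 0.34, and with the scanner software's own log ratios it was 0.083.
C6, which joins C5b in the first step of the attack complex, had levels of 0.94, 1.42 and 1.81 in TiO2 livers at day 28 (lowest, median, highest), against 0.67, 0.98, 1.03 and 1.75 in control livers. At day 1 it had 0.87, 1.15 and 1.30 in TiO2 livers, against 0.47, 0.73, 0.95, 1.17 and 1.35 in control livers. All 6 TiO2 livers at day 28 lay above the control mean of their scan day, although the ranges overlapped. The difference was 0.35 ± 0.17 at day 28 and 0.18 ± 0.16 at day 1. C9, which forms the pore, had 0.32 ± 0.28 at day 28 and 0.55 ± 0.27 at day 1, and all 6 TiO2 livers at day 1 lay above the control mean of their scan day. On scan day 1 that day 1 difference was 1.33, against a control liver with a level of 1.80 where the other 4 controls had 3.57 to 4.05.

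**Figure D3:**
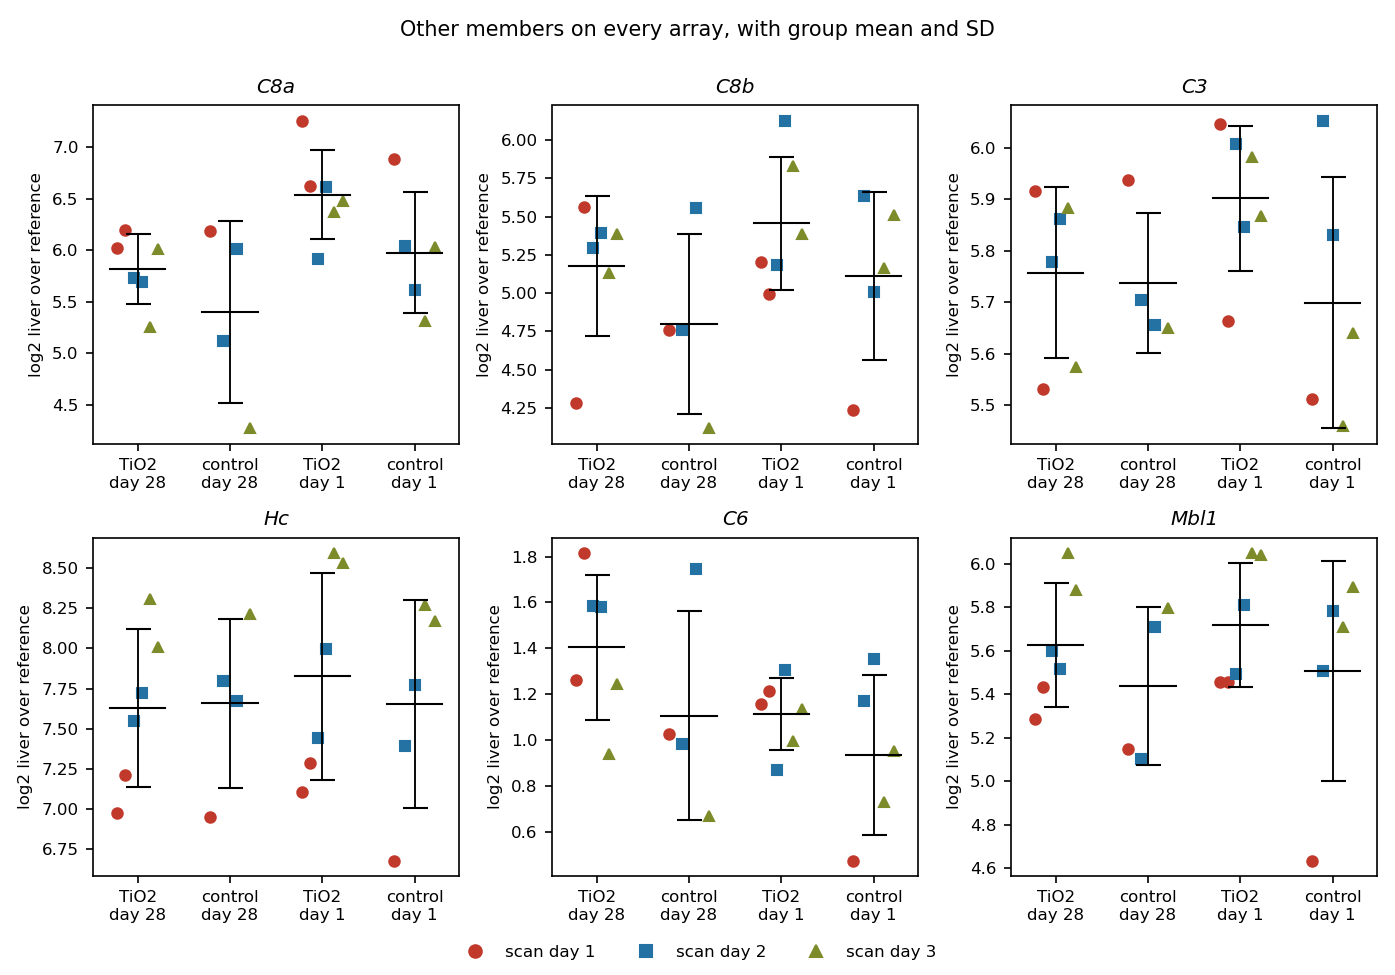
Levels of C8a, C8b, C3, Hc, C6 and Mbl1 (log2 liver over reference, y axis) on each of the 21 arrays by group (x axis). Points are arrays coloured by scan day, with the group mean and SD; every pair of TiO2 and control groups overlaps, Hc separates by scan day, and C8a is lower at day 28 than at day 1 in both treatments.

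The soluble regulators had small differences with no common direction, 3 of 5 higher in TiO2 livers at day 28 and 2 at day 1. Serping1, the C1 inhibitor that blocks C1r, C1s and the lectin proteases, had levels of 3.90, 5.37 and 5.80 (lowest, median, highest) in TiO2 livers at day 28, against 4.17, 5.42, 5.45 and 5.59 in control livers. At day 1 it had 4.51, 5.46 and 5.98 in TiO2 livers, against 3.97, 5.23, 5.54, 5.68 and 5.72 in control livers. The arrays of scan day 1 were the lowest in every group, and scan day held 90.3% of the variance of this gene. Its difference was -0.09 ± 0.12 at day 28 and 0.25 ± 0.11 at day 1.
Cfi, the protease factor I that inactivates C3b and C4b, had 0.08 ± 0.12 at day 28 and -0.02 ± 0.11 at day 1. C4bp, a cofactor of factor I, had 0.07 ± 0.10 and 0.03 ± 0.09, and Clu, which blocks the assembly of the attack complex, had 0.11 ± 0.10 and -0.03 ± 0.10. Vtn, or vitronectin, another inhibitor of that assembly, had -0.15 ± 0.14 at day 28 and -0.19 ± 0.13 at day 1. The 95% intervals of these 4 genes lay between -0.47 and 0.32 on both days.

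Of the membrane regulators, Cd55, which speeds the decay of convertases, was above background on 10 of 21 arrays and had 0.13 ± 0.13 at day 28 and -0.09 ± 0.13 at day 1. Cd59a, which keeps C9 from forming a pore, had -0.01 ± 0.13 and 0.02 ± 0.12. The receptors of the released peptides were near background: C3ar1, the receptor of C3a, was above it on 5 of 21 arrays, and C5ar1, that of C5a, on 1. No difference is given for them, and none was detectable at this signal.

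By source, the 4 tested members made largely by macrophages or other myeloid cells (C1qa, C1qb, C1qc and Cfp) had median differences of 0.34 at day 28, 0.22 at day 1 and 0.30 in the mean of both days. The 21 members made mainly by hepatocytes had medians of 0.07, 0.03 and 0.05, with 12, 13 and 14 of them higher in TiO2 livers. Whether the 2 sources differed was not tested. Marker genes of the cells of the liver were set beside these values, and their part in the C1q values was not tested. All 11 markers of Kupffer cells and other macrophages on the array were above background on all 21 arrays, and 10 were higher in TiO2 livers at day 28, 9 at day 1 and 10 in the mean, where their median difference was 0.18. Of all features 48.7%, 45.7% and 48.3% were higher in these comparisons. Their mean level per array ranged from 2.17 to 3.09 in TiO2 livers and from 2.32 to 2.81 in control livers at day 28, and from 2.21 to 3.32 in TiO2 livers and from 2.20 to 2.64 in control livers at day 1. The 13 hepatocyte markers had median differences of -0.0019 at day 28, -0.019 at day 1 and 0.00019 in the mean. All 7 markers of sinusoidal endothelial cells were higher in TiO2 livers at day 28 and in the mean and 2 at day 1, with medians of 0.22 at day 28, -0.077 at day 1 and 0.062 in the mean. The macrophage markers had a median of 0.20 at day 28 and 0.14 at day 1. Of the 9 markers of monocytes or neutrophils on the array 3 were tested, with medians of 0.099 at day 28, 0.18 at day 1 and 0.14 in the mean. Among them S100a9, named after its values were seen, had 0.64 at day 28, 0.55 at day 1 and 0.59 in the mean. The others, S100a8 and Csf3r, were above background on 9 and 12 arrays. In the same order S100a8 had 0.099, 0.18 and 0.14, and Csf3r had 0.015, -0.13 and -0.059.

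**Figure D4:**
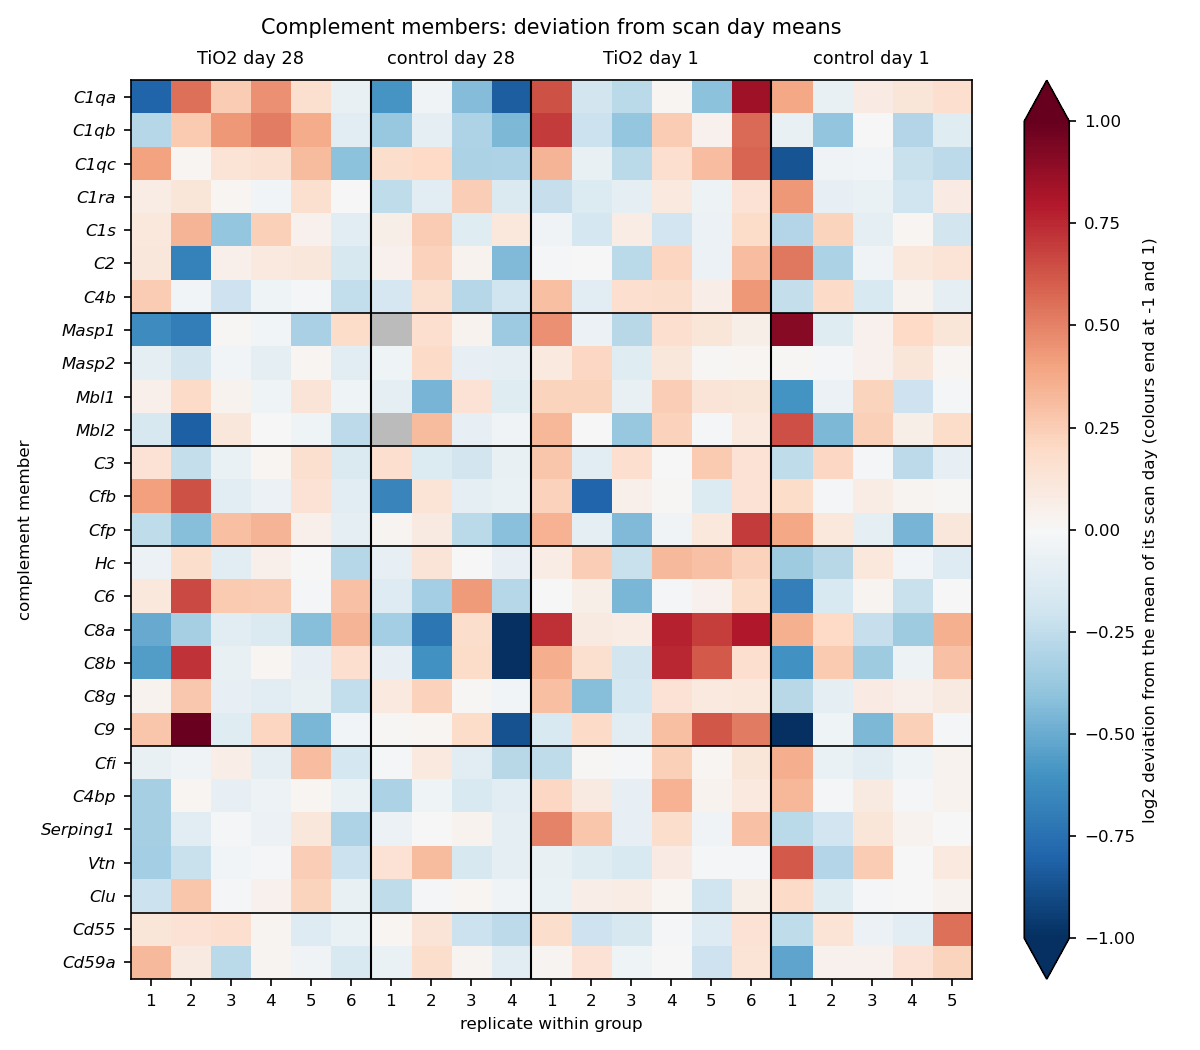
Deviation of each tested complement gene (rows, grouped by role) on each of the 21 arrays (columns, by group and replicate) from the mean of the scan day of the array, in log2 units. Red is higher and blue lower, colours end at -1 and 1, and grey marks a missing value. C1qb is mostly red in TiO2 livers. C8a is red in most TiO2 livers at day 1 and in control replicates 1, 2 and 5 of that day.

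Scan day held over 50% of the variance in 15 of the 27 tested members, with a median of 58.9%, against a median of 7.8% for the group. Over the 25 members with a value on all 3 scan days, the mean difference of both days was higher in TiO2 livers within each scan day for 12 members and lower within each for 0. Of all features, 13.9% were higher and 15.1% lower in all 3. The 12 were C1qa, C1qb, C1qc, C3, C4b, C6, C8b, C9, Clu, Hc, Mbl1 and Serping1. At day 28 alone, 9 of 25 members were higher and 1 lower in all 3, against 13.2% and 13.3% of all features. At day 1, 8 of 27 were higher and 2 lower, against 10.6% and 15.1% of all features. A scan day held 1 or 2 control livers per day, so these are differences of very few animals.

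Whether the effect of TiO2 differed between the days was tested as day 28 minus day 1. No member passed (0% of all features), 13 effects were larger and 14 smaller at day 28, with a median of -0.029, where 50.5% of all features were larger. Serping1 was the 1 member with an unadjusted p under 0.05, lower at day 28, as were 1.12% of all features. Its effects differed by -0.34 ± 0.16 (95% interval -0.67 to -0.0033, adjusted p 1 in limma), and by -0.81, -0.14 and -0.11 within scan days. Those of Hc differed by -0.33 ± 0.16 (-0.66 to 0.01), and by -0.37, -0.24 and -0.40 within scan days. For C3 the value was -0.17 ± 0.16.

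Levels at day 28 and day 1 were also compared within each treatment. The comparisons share their animals with those above. In TiO2 livers 0 members passed, against 0.108% of all features (19, of them 7 higher and 12 lower at day 28). There 7 members were higher and 20 lower at day 28, with a median of -0.084, where 51.3% of all features were higher. At an unadjusted p under 0.05, 3 were lower (C8a, Serping1 and C4bp), as were 3.9% of all features. In control livers no member and 0% of all features passed, with 10 members higher and 17 lower at day 28, a median of -0.081, and 49.8% of all features higher. There 3 members were lower at an unadjusted p under 0.05 (C8a, C1qa and C4bp), as were 3.86% of all features.

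C8a was lower at day 28 than at day 1 in both treatments, with the levels given above. The difference was -0.72 ± 0.22 in TiO2 livers, a 0.606-fold level (unadjusted p 0.00311, adjusted p 0.292), and -0.65 ± 0.25 in control livers, a 0.639-fold level (unadjusted p 0.0184, adjusted p 0.565), both from limma. Within scan days it was -0.83, -0.55 and -0.79 in TiO2 livers and -0.70, -0.26 and -1.40 in control livers. Without control day 28 replicate 4 the value in control livers was -0.30 and no longer had an unadjusted p under 0.05, and with 1 animal left out at a time it ranged from -0.89 to -0.30. With the scanner software's own log ratios it was -0.09 in TiO2 livers and -0.23 in control livers. C8b had -0.28 ± 0.22 in TiO2 livers and -0.31 ± 0.26 in control livers. C8a and C8b thus had negative differences in both treatments, of which none passed. C8g, the third C8 gene, had -0.04 ± 0.11 in TiO2 livers and 0.11 ± 0.13 in control livers. C4bp had -0.20 ± 0.09 and -0.24 ± 0.10. C1qa had -0.02 ± 0.22 in TiO2 livers and -0.61 ± 0.26 in control livers, so its difference between treatments at day 28 stood beside control livers that were lower than those of day 1. Serping1 had -0.30 ± 0.10 in TiO2 livers and 0.03 ± 0.12 in control livers. C3 had -0.14 ± 0.10 in TiO2 livers and 0.02 ± 0.12 in control livers, and the sign of the last value changed with the processing. Its second, dimmer probe had -0.48 in TiO2 livers and -0.22 in control livers. With the mean over all probes C3 had an unadjusted p under 0.05 in limma in TiO2 livers, and did not pass.

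**Figure D5:**
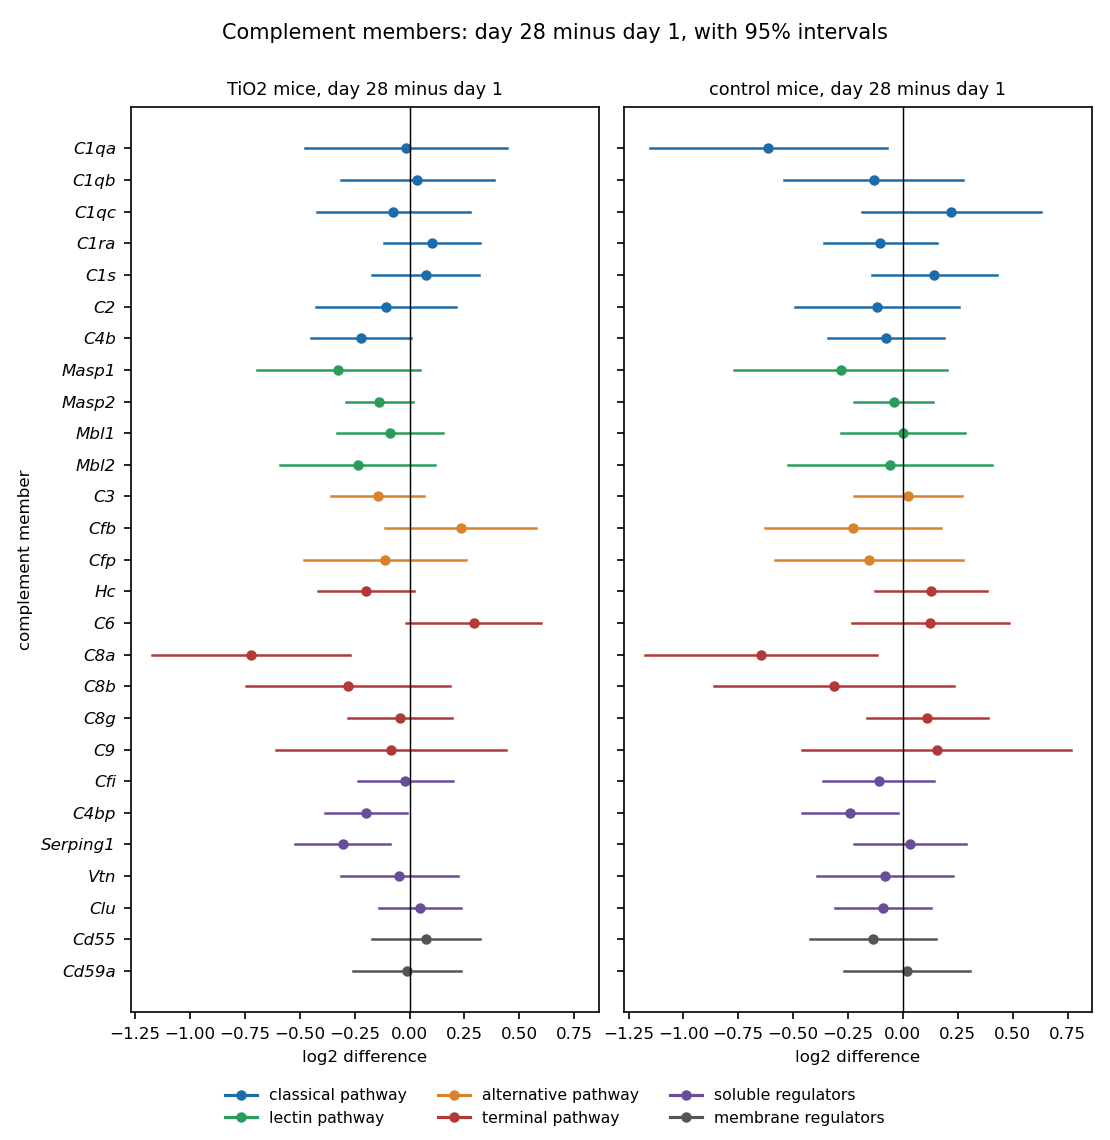
Difference between day 28 and day 1 (log2, x axis) of the 27 tested complement genes (y axis) in TiO2 livers and in control livers. Points are limma estimates with scan day as a block and bars are 95% intervals; C8a lies at -0.72 in TiO2 livers and -0.65 in control livers, and most other intervals cross 0.

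A further 34 complement genes were listed, of which 29 were on the array, 22 were tested and 0 passed in any comparison. Those at an unadjusted p under 0.05 are named. Vsig4, a complement receptor of Kupffer cells, had 0.47 ± 0.22 at day 28 and 0.17 ± 0.20 at day 1 between TiO2 and control livers. Calr, the chaperone calreticulin that binds C1q, had 0.33 ± 0.11 at day 1 and 0.24 ± 0.08 in the mean of both days, and was lower at day 28 than at day 1 in TiO2 livers by -0.22 ± 0.10. The collectin gene Colec12 had 0.29 ± 0.13 at day 1 and 0.19 ± 0.09 in the mean, and Colec10 had -0.29 ± 0.13 at day 1, with effects that differed between the days by 0.50 ± 0.19. Cd93, once described as a receptor of C1q, had 0.30 ± 0.13 at day 28, effects that differed by 0.48 ± 0.18, and -0.38 ± 0.14 between day 28 and day 1 in control livers. Cr2, a receptor of C3 fragments on B cells, had -0.18 ± 0.08 at day 28 and was above background on 6 arrays. Cfhr2, a factor H-related gene, was lower at day 28 than at day 1 in TiO2 livers at -0.30 ± 0.08 and in control livers at -0.32 ± 0.11.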

How the data were processed

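Red and green spot intensity was read from the scanner files as deposited, which the authors made with Agilent Feature Extraction (10.7.3.1 per the file headers, 9.5.3.1 per the submitters' processing notes). Here the median spot signals were background-corrected (normexp, offset 50), normalized within each array by loess and averaged per probe. Spots marked as outliers, 72 to 324 per array, were left out. One limma model (limma 3.58.1, R 4.3.3) of 4 group means over 21 arrays, with scan day as a block, was fitted across all 17649 features, 212 of which lacked a value on some array. P-values were adjusted by Benjamini-Hochberg with a threshold of 0.05 over all features, and the test was checked on simulated data. Probes were named through RefSeq (23374 of 41174). The deposited log2 table of the authors, whose columns had medians from -0.058 to -0.011 and ran in the direction of the scanner ratios (its scale and centring are not stated), and the log10 ratios of the scanner software, deposited in the same files and turned to log2, served as alternatives. Groups came from the labels, the design text names 22 arrays and 21 were analysed, and the number of arrays limits the precision. Replicates were called biological by the labels.

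The members and lists were chosen with earlier results of these data known. Values per array are given for the 3 members with the smallest p in each comparison of TiO2 with control, the 2 with the smallest in each other comparison, and C3. The further complement genes are named at an unadjusted p under 0.05.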

Additional observations from a re-analysis of the deposited data

Results flagged for a closer look

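On 11 occasions 1 array of a group stood apart from the others, its distance to the nearest being a large share of the group's whole range. Chance would give about 1 in 20 such groups if the arrays of a group were alike, and 106 were examined. The levels still held scan day, so that rate does not apply where scan day separates the arrays. Most came from control day 1 replicate 1, scanned on day 1, for which the group holds no second array of that scan day. There C1qa had a level of 2.21 where the other 4 had 3.11 to 3.47, C1qc 2.92 against 4.32 to 4.43, and C8g 4.94 against 6.17 to 6.51. The same array had 1.80 for C9 (others 3.57 to 4.05), 3.98 for Cfb (5.21 to 5.36), 3.97 for Serping1 (5.23 to 5.72) and 2.21 for Cd59a (3.11 to 3.35). From the mean of scan day 1 over all groups it deviated by 0.38 for C1qa, -0.87 for C1qc and -0.28 for C8g. The deviation was -1.31 for C9, 0.18 for Cfb, -0.27 for Serping1 and -0.52 for Cd59a.

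Control day 28 replicate 1, also alone on scan day 1, had 3.14 for Cfb, against 5.13 to 5.36 in the others, and 4.17 for Serping1, against 5.42 to 5.59. From the mean of scan day 1 over all groups it deviated by -0.66 for Cfb and by -0.06 for Serping1. In TiO2 livers at day 28, replicate 2 had 4.48 for C2 (others 5.01 to 5.29) and replicate 1 had 4.29 for C8b (others 5.13 to 5.56), both from scan day 1. Here the deviation from the mean of scan day 1 was -0.67 for C2 and -0.56 for C8b.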

How the results depend on the processing

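No paired analysis was possible because replicates were numbered in accession order, which pairs no animals. No complement gene passed in any of the 6 comparisons under the 36 settings run, of which 21 left out 1 animal each. The counts over all features moved. For day 28 against day 1 in TiO2 livers, 19 passed as reported, 6 without the scan day block, 31 with slide as a random block, 12 with an offset of 10, 3 with the scanner software's log ratios, 4 without scan day 1, 2 without scan day 2 and 2 without scan day 3. With 1 animal left out they ranged from 10 to 24. At day 1, TiO2 against control had 3 with slide as a random block and 0 to 3 with 1 animal left out. The mean of both days had 1 with the software's log ratios and 0 to 1 with 1 animal left out. In control livers, day 28 against day 1 had 1 with array weights, 1 without scan day 2 and 0 to 9 with 1 animal left out. Without the block, 165, 306 and 300 features had an unadjusted p under 0.05 for TiO2 at day 28, at day 1 and in the mean, against 545, 720 and 754 with it.

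Only the differences for which a member was named by its small p, and those of C3, were followed through the settings. They kept their sign under every setting except among those of C3. The signs of the other values given for these members were not followed. Its difference at day 28 was -0.068 without scan day 2 and ranged from -0.00738 to 0.14 with 1 animal left out. Its difference between days in control livers was -0.15 with the software's log ratios, -0.046 from the liver channel alone, -0.10 over all probes, -0.00178 with array weights, -0.10 without scan day 1 and -0.032 without scan day 3, and ranged from -0.071 to 0.11 with 1 animal left out; the cause was not tested. C1qb stayed between 0.30 and 0.51 in the mean of both days. The number of members at an unadjusted p under 0.05 in that mean was 7 as reported, 2 without the block and 0 with the software's log ratios. At day 28 it was 3 as reported and at day 1 it was 5, and on both days it was 0 without the block and 0 with the software's log ratios. Signal near background limits Cd55, and Cfd, C3ar1 and C5ar1 were not tested.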
